A study of Homo sapiens with 6 samples.

Results

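Nuclear copies of mitochondrial genes were followed in SW480 cells with and without depletion of MORC2. A copy was taken as any gene of the count table whose symbol is that of a mitochondrial gene followed by P and a number, or MTRNR2L and a number. The table of 56303 genes held 386 such copies, and the 26 with at least 60 counts over the 6 libraries are described here. Of the others, 249 had no count and 111 had 1 to 59 counts. The members were thus chosen by their summed counts, and their abundance is given as a description with no test. Just inside the limit stood MTND4P24 with 66 counts, MTND6P3 with 62 and MTRNR2L10 with 61, and just outside it stood MTND6P22 with 59, MTND4P26 with 54 and MTCO1P53 with 48.

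SW480 is an established line from a human colorectal adenocarcinoma. Cells carried either a non-silencing lentiviral hairpin (shCtrl) or a hairpin against MORC2 (shMORC2), a nuclear ATPase that takes part in gene silencing, and both lines had been selected with puromycin as stable clonal lines. Polyadenylated RNA was sequenced from 3 libraries per group. The replicates are described as independent experiments, without saying whether these were separate cultures or clones. The tests measure the spread between these libraries, which may be technical, and the hairpin and the clone that carries it cannot be told apart. The 6 libraries held 42092664 to 43434425 counts, and genes of the mitochondrial genome took 7.04% to 8.90% of them. MORC2 itself was at 30.5 ± 4.07 CPM (counts scaled to a common library size) in shMORC2 against 47.1 ± 1.46 CPM in shCtrl (SD, n = 3 each), or 64.7% of the control. Its log2 fold change, always given as shMORC2 over shCtrl, was -0.63 with an SE of 0.10 and an edgeR adjusted p of 0.000216. The epithelial genes EPCAM, KRT8, KRT18 and VIL1 were abundant. Of the other epithelial genes looked at, mean CPM in shCtrl was 2165 for KRT19, 150 for CDH1 and 27.0 for ASCL2. It was only 15.2 for CDX2, 9.49 for KRT20 and 4.73 for LGR5. These last 3 differed between the groups (log2 fold change 0.47, 0.75 and -1.10, edgeR adjusted p 0.0158, 0.00306 and 0.00647). PTPRC, CD3E, COL1A2 and DCN, markers of leukocytes and fibroblasts, were at or near 0 (2 to 26 counts in all 6 libraries together). Among further markers of such cells and of vessels, CD68 had 14849 counts (log2 fold change 1.27), PECAM1 4276 and COL1A1 2518, and their part in the results was not tested.

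Mitochondria keep a small circular genome that encodes core subunits of the respiratory chain and of ATP synthase, together with the ribosomal and transfer RNAs that translate them. Over evolution, pieces of this genome have been inserted into the chromosomes, where they persist as pseudogenes that resemble the genes they came from and are not thought to make the mitochondrial proteins. A short read from a mitochondrial transcript can match a recent copy as well as, or nearly as well as, its own gene. How reads that match several places were counted is not given in the sources used here, nor was the mitochondrial genome of SW480 itself analysed. A count assigned to a copy is therefore not in itself evidence that the nuclear locus was transcribed, and the part of mitochondrial transcripts in the counts was not tested.

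The sequences show how close the copies are to their genes, and are given for the copies on which the comparisons turn. All are from GRCh38 and run in the 5′ to 3′ direction of the mitochondrial gene, with capitals at every position where a copy and its gene differ. The most abundant copy, MTATP6P1, is shown over the stretch of 300 bases with the most differences (chr1:633813-634112, plus strand) beside the matching stretch of MT-ATP6 (chrM:8644-8943), from which it differed at 6 positions.
MTATP6P1: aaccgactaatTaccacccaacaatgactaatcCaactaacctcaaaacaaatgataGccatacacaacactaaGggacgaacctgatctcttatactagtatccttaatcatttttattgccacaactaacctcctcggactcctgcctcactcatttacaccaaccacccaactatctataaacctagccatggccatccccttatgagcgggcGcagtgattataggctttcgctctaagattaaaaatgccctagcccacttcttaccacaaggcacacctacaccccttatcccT
MT-ATP6: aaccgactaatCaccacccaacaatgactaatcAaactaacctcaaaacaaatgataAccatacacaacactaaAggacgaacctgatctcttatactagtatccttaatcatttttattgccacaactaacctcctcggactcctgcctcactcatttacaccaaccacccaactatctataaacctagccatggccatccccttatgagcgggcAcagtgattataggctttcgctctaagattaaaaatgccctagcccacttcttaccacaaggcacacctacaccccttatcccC

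MTATP8P1, the copy called lower whose gene was not called, is shown whole (chr1:633535-633741, plus strand, 207 bases) beside MT-ATP8 (chrM:8366-8572). The pair differed at 5 positions.
MTATP8P1: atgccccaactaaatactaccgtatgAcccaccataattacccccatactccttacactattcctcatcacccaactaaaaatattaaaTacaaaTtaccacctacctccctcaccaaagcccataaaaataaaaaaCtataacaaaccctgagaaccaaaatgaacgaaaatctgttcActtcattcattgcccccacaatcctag
MT-ATP8: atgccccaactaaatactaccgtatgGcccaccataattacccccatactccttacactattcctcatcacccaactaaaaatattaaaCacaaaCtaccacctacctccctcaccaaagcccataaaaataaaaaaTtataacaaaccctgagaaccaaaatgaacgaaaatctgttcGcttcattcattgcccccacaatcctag

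MTND4LP30, the copy that rose most, is shown whole (chr5:134928030-134928326, minus strand, 297 bases) beside MT-ND4L (chrM:10470-10766). It carried 15 differences, spread along its length.
MTND4LP30: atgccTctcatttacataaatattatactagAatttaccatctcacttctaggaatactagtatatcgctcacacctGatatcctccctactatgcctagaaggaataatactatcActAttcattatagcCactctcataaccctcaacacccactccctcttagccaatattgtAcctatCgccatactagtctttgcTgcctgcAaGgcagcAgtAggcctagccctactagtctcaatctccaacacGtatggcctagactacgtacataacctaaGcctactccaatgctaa
MT-ND4L: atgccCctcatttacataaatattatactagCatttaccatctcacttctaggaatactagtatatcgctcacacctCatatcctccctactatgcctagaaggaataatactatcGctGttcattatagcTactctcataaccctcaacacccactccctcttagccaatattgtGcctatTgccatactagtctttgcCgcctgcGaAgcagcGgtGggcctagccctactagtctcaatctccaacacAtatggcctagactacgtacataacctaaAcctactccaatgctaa

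MTRNR2L8 (chr11:10508152-10508226, minus strand) and MTRNR2L12 (chr3:96617199-96617273, minus strand) are shown over the short reading frame for which these genes are named, the frame of the humanin peptide of 24 codons within MT-RNR2 (chrM:2633-2707). Over these 75 bases each copy differed from MT-RNR2 at 2 positions, 1 of which both shared. In the lines for the copies capitals mark a difference from MT-RNR2, which is printed in lower case.
MTRNR2L8: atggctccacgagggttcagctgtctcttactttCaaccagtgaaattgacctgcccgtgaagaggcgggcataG
MTRNR2L12: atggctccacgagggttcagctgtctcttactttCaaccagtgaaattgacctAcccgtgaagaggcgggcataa
MT-RNR2: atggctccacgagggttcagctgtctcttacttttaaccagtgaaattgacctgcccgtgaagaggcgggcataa

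The 26 copies together took 894667 counts, 0.350% of all counts, and were very unequal. MTATP6P1, the copy of a membrane subunit gene of ATP synthase, alone held 67.9% of them, and with MTCO1P12 and MTND2P28 the top 3 held 92.7%. At the other end, 6 copies had under 100 counts. Per length of gene, MTATP6P1 stood at 3422 ± 210.1 RPKM (reads scaled by gene length and library total, SD, n = 3) in shCtrl while MTND2P28 stood at 339.7 ± 4.41 RPKM and MTCO1P12 at 304.6 ± 49.5 RPKM. The ranges of MTND2P28 and MTCO1P12 overlapped in shCtrl, so their order is not set. MTATP8P1 followed at 123.4 ± 17.0 RPKM and MTCO3P12 at 117.5 ± 26.2 RPKM, which also overlapped.

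**Figure D1:**
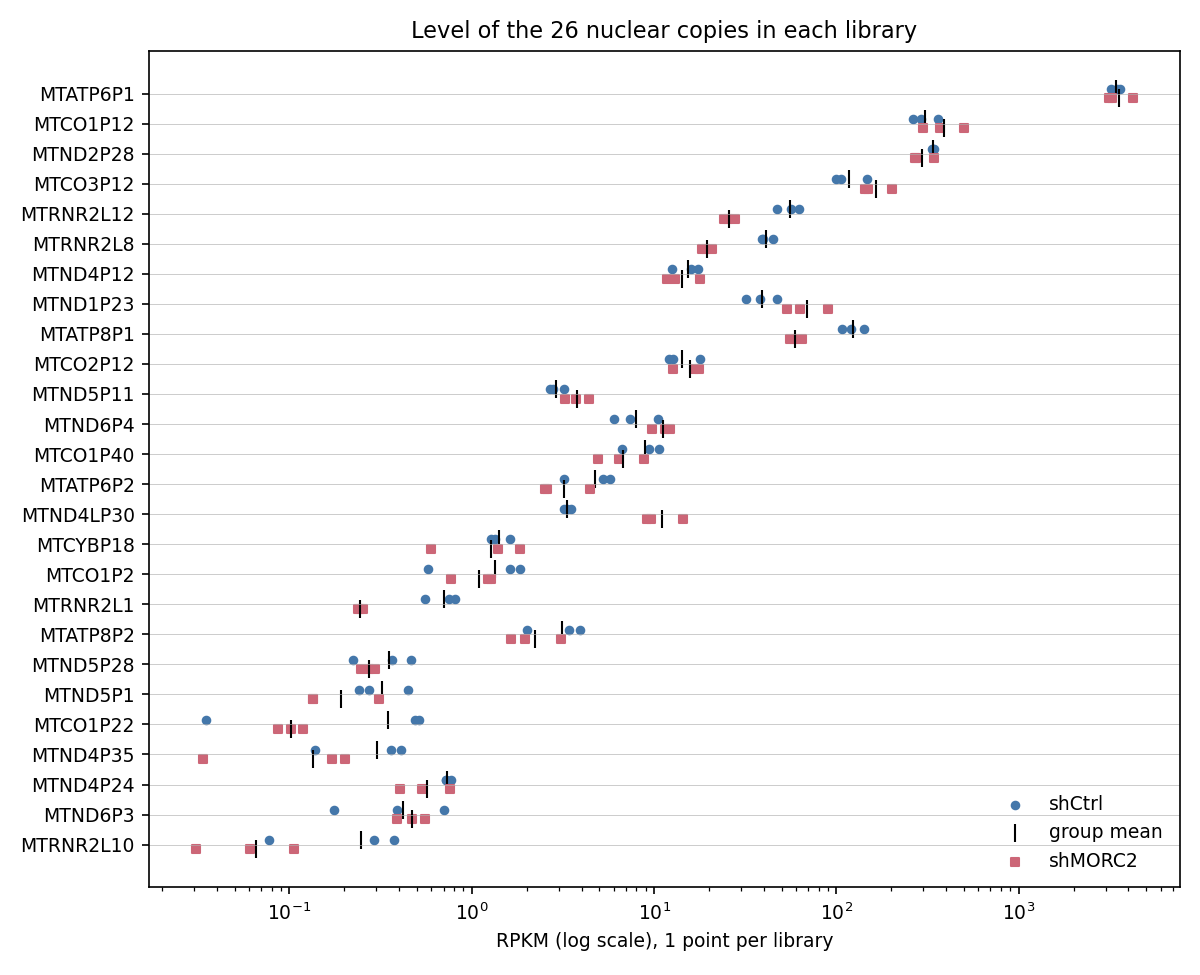
Each point is the RPKM of a nuclear copy in 1 library on a log axis, with shCtrl as blue circles, shMORC2 as red squares and the group mean as a vertical line, and the 26 copies are ordered by total count. MTATP6P1 lies above all other copies in every library, and the groups separate for MTATP8P1, MTRNR2L8, MTRNR2L12 and MTRNR2L1 (lower in shMORC2) and for MTND4LP30, MTND1P23 and MTND5P11 (higher).

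The members lay at 14 of the 137 places in the genome that held copies, with copies within 10000 bases of each other taken as one place. An insertion of 5861 bases on chromosome 1 (chr1:629062-634922, plus strand) held 7 of them, MTND1P23, MTND2P28, MTCO1P12, MTCO2P12, MTATP8P1, MTATP6P1 and MTCO3P12, in the order of the mitochondrial genome, and these took 96.3% of the members' counts. It lies in an intron of RP5-857K21.4, a gene on the other strand with 5 to 22 counts per library. An insertion on chromosome 5 (chr5:134923303-134928326), in an intron of PCBD2, held MTCYBP18, MTND6P4, MTND5P11, MTND4P12 and MTND4LP30. PCBD2 encodes a pterin dehydratase that is also a cofactor of the transcription factor HNF1, and of these 5 copies only MTND6P4 lies on its strand. Another place (chr5:100048988-100055045) held MTATP6P2, MTCO1P22 and MTND4P35, and the other 11 members each lay at a place of their own. Copies of one insertion share their surroundings and are not independent of each other. Of the 26 symbols, 22 had an entry in GENCODE v44, at the same coordinates, 14 as processed and 8 as unprocessed pseudogenes.

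Members resembled the mitochondrial genome more than the other copies did. Their median identity over the best local alignment was 93.9%, against 74.5% for the 347 other copies that could be aligned. That alignment covered only 11.8% of MTND5P1 and 32.1% of MTND5P28, and MTND1P23 was the next lowest member, at 94.9%. Some of the other copies were also aligned only in part, such as MTCYBP21 (15.3%). Of the 8 copies with an identity of at least 97%, 7 were members, with a median of 12474.5 counts over the 8. Of the 14 copies from 92% to under 97%, 11 were members and the median was 403.5 counts. In the next class, from 85% to under 92%, 5 of 21 were members, and under 85% only 3 of 330 were, while 231 of those 330 had no count. Copies of an insertion share a history, so this is a description over copies and not over independent points. The copy above 97% that was not a member, MTRNR2L2, is annotated over 87 bases and had 10 counts.

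**Figure D2:**
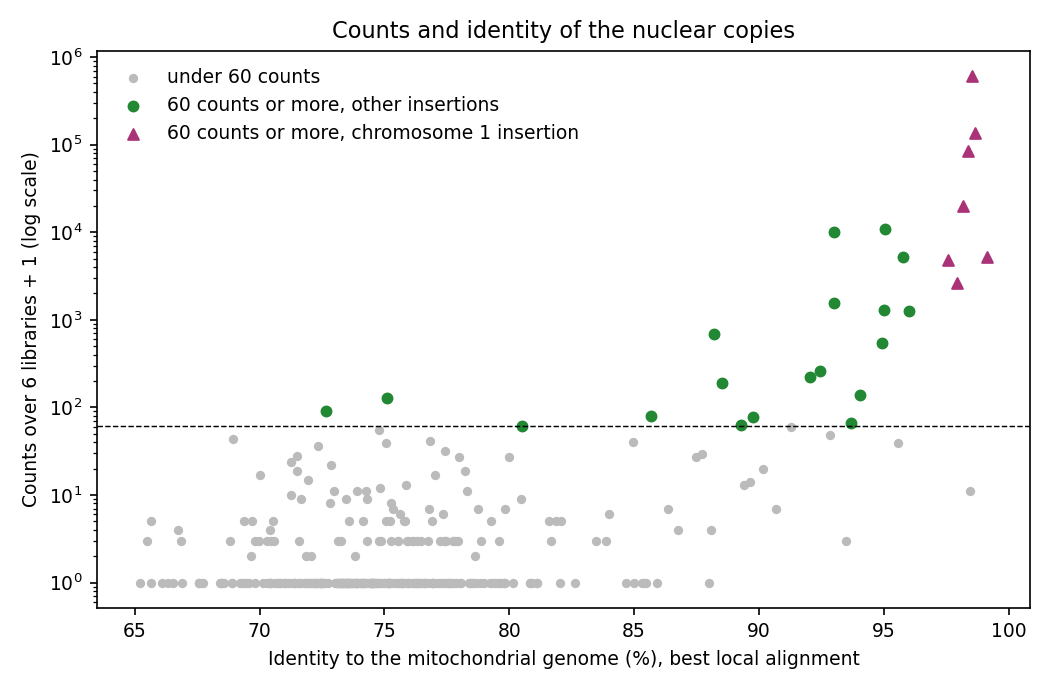
Each point is a nuclear copy, with its identity to the mitochondrial genome in percent over the best local alignment on the x axis and its counts over 6 libraries plus 1 on a log y axis. Triangles mark the 7 members of the chromosome 1 insertion, circles the other members and grey points the copies under 60 counts (dashed line), and the highest counts lie at the highest identities.

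Identity did not order the 7 copies of chromosome 1 among themselves. Since some copies cover only a piece of their gene, they are compared here per length, as the RPKM of the copy per 100 RPKM of its gene in shCtrl. MTND1P23, which is annotated over 372 bases, was the most similar to its gene (99.2%) and shared 34.8% of its windows of 100 bases exactly with the mitochondrial genome, and it stood at 1.19 ± 0.257 per 100 of MT-ND1 (SD, n = 3). MTATP6P1, at 98.5% identity and with 11.9% of its windows shared, stood at 22.6 ± 0.935 per 100 of MT-ATP6. MTND2P28 (98.4%) stood at 12.01 ± 0.670 per 100 of MT-ND2 and MTCO1P12 (98.6%) at 5.15 ± 0.988 per 100 of MT-CO1. The remaining 3 of the insertion stood at 1.49 ± 0.216 for MTCO3P12 (98.2%), 0.688 ± 0.0666 for MTATP8P1 (97.6%) and 0.263 ± 0.0568 for MTCO2P12 (98.0%). Members elsewhere shared no window of 100 bases exactly with the mitochondrial genome and stood at 0.380 per 100 or less. MTATP8P1 shared no such window either.

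Summed over the 26 copies, the level overlapped between the groups. The sum was 3558 ± 556.6 CPM in shMORC2 against 3417 ± 168.7 CPM in shCtrl (SD, n = 3 each), a log2 ratio of 0.06. In shMORC2 it was 4201, 3224 and 3249 CPM in replicates 1, 2 and 3, and in shCtrl 3578, 3241 and 3431 CPM. The highest of all was shMORC2 replicate 1. Without that library the log2 ratio was -0.08. Without MTATP6P1 the sums were 1093 ± 78.2 and 1146 ± 211.0 CPM.

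Below the sum, copies moved in both directions. Of the 26 copies, 24 passed the filter on low counts, and MTCO1P22 and MTRNR2L10 did not. A filter of this kind keeps a low copy more readily when 1 group is high, and the counts of calls below are a description. edgeR called 5 higher in shMORC2 (MTND4LP30, MTND1P23, MTND6P4, MTCO3P12 and MTND5P11), where 19.9% of all 21005 genes tested were called higher. It called 4 lower (MTRNR2L1, MTRNR2L12, MTRNR2L8 and MTATP8P1), where 19.6% of all genes were, and did not call the other 15. These shares are near the background, so the number called says nothing particular about the copies. The median log2 fold change over the 24 was -0.24, against -0.01 over all genes. The CPM of the groups did not overlap for 4 copies in each direction, where 50.2% of all genes did not overlap. With the replicate number as a block, 6 were called higher and 8 lower, where that fit called 24.4% of all genes higher and 24.5% lower. Without shCtrl replicate 2 or 3 the higher calls were 2 (15.3% and 16% of all genes), and without shMORC2 replicate 1 they were 3 (19.8%). The lower calls were 8 without shCtrl replicate 3 (15% of all genes) or shMORC2 replicate 1 (19.4%), where all 26 copies were tested.

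The copies of MT-RNR2, the RNA of the large mitochondrial ribosomal subunit, were called lower in 3 of 4 cases, and the remaining copy was not tested (19.6% of all genes were called lower). MTRNR2L12 was at 57.7, 64.9 and 50.9 CPM in shCtrl and 28.7, 27.1 and 25.6 CPM in shMORC2, replicates 1 to 3. MTRNR2L8 was at 56.9, 51.2 and 52.0 CPM in shCtrl and 26.4, 24.4 and 25.4 CPM in shMORC2. Both lay wholly lower in shMORC2, with log2 fold changes of -1.09 (SE 0.10, adjusted p 2.67e-06 with edgeR) and -1.07 (SE 0.08, adjusted p 8.63e-07). The rarer MTRNR2L1 was at 1.23, 1.16 and 0.875 CPM in shCtrl and 0.36, 0.384 and 0.399 CPM in shMORC2, a log2 fold change of -1.51 (SE 0.30, adjusted p 0.00158). It rested on 16 or 17 counts in each shMORC2 library. MTRNR2L10 had 19, 24 and 5 counts in shCtrl and 7, 2 and 4 in shMORC2, overlapped and was not tested in the main fit. With no filter on low counts, and without shCtrl replicate 3 or shMORC2 replicate 1, it was tested and called lower. MT-RNR2 itself fell by 0.85 on the log2 scale (SE 0.11, adjusted p 5.41e-05), from 22762 ± 1827 CPM to 12588 ± 1705 CPM.

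Of the 11 copies of the complex I genes (MT-ND), whose products form the entry point of electrons into the respiratory chain, all were tested, with 4 called higher and none lower (19.9% and 19.6% of all genes). Of those 4, 3 lie in the chromosome 5 insertion within PCBD2, and no direction is drawn for the group. MTND4LP30, on chromosome 5, was at 0.957, 0.945 and 1.07 CPM in shCtrl and 4.17, 2.90 and 2.75 CPM in shMORC2, from 40 to 44 counts against 117 to 185. Every shMORC2 library lay above every shCtrl library, and the rise was 1.72 on the log2 scale (SE 0.22, adjusted p 4.95e-05 with edgeR). Its neighbours in the insertion had smaller fitted changes. MTND6P4 was at 5.33, 3.83 and 3.23 CPM in shCtrl and 6.22, 6.10 and 5.16 CPM in shMORC2 (log2 fold change 0.49, SE 0.18, adjusted p 0.0385), with shCtrl replicate 1 inside the range of shMORC2. MTND5P11 was at 5.68, 5.01 and 5.00 CPM in shCtrl and 7.75, 6.91 and 5.96 CPM in shMORC2 (0.39, SE 0.13, adjusted p 0.0320), with no overlap. Both calls were lost without shCtrl replicate 2 or 3 or shMORC2 replicate 1 or 2, with adjusted p from 0.0797 to 0.104 for MTND5P11 and from 0.0721 to 0.156 for MTND6P4, and that of MTND6P4 also without TMM scaling (0.0545) and in both limma fits (0.0597 and 0.0615). The next copy on that strand, MTND4P12, was at 21.0 ± 3.04 CPM in shCtrl against 19.6 ± 3.94 CPM in shMORC2 (-0.10, adjusted p 0.598), and the intron's gene PCBD2 had a log2 fold change of 0.41 (SE 0.16, adjusted p 0.0606). MTND4P12 shares 7 bases with MTND4LP30, and MIR4461, which overlaps MTND4LP30 by 74 bases on the other strand, had at most 8 counts in any library. The strand setting of the counting is not given, and the part of sense and antisense reads in these counts was not tested.

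On chromosome 1, MTND1P23 was at 17.2, 14.2 and 12.2 CPM in shCtrl and 32.5, 20.4 and 23.9 CPM in shMORC2. The groups did not overlap, and the rise was 0.82 on the log2 scale (SE 0.16, adjusted p 0.00128). MTND2P28 was at 341, 357 and 364 CPM in shCtrl and 352, 291 and 285 CPM in shMORC2. Its change of -0.19 (SE 0.09, adjusted p 0.0948) missed the threshold, and with the replicate block it was -0.20 (adjusted p 0.0091), while leaving out shMORC2 replicate 1 gave -0.30 (adjusted p 0.0053). The remaining complex I copies tested, MTND5P28, MTND5P1, MTND4P35, MTND4P24 and MTND6P3, rested on 62 to 127 counts in all and had log2 fold changes from -1.14 to 0.17, with none called. Of these only MTND4P35 was called with the block (-1.18, adjusted p 0.0493), from 24, 21 and 8 counts in shCtrl and 12, 10 and 2 in shMORC2.

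Among the copies of cytochrome c oxidase genes (MT-CO), which encode the catalytic core of the enzyme that reduces oxygen, 1 of 5 tested was called, in the higher direction. Of all genes tested, 19.9% were called higher and 19.6% lower, so this count says nothing particular about these copies. MTCO3P12 was at 78.6, 57.6 and 55.5 CPM in shCtrl and 107, 79.7 and 82.5 CPM in shMORC2. All 3 shMORC2 libraries lay above shCtrl, with the log2 fold change at 0.49 (SE 0.14, adjusted p 0.0112), and the call was lost without shCtrl replicate 2 (adjusted p 0.0601) or 3 (0.0518) and in both limma fits (0.0569 and 0.0579). MTCO1P12 was at 540, 449 and 414 CPM in shCtrl and 754, 470 and 575 CPM in shMORC2, with overlap (0.36, SE 0.14, adjusted p 0.0614), and with the block it was 0.34 (adjusted p 5.2e-05). It was also called without shCtrl replicate 1 (0.47, adjusted p 0.0134) or shMORC2 replicate 2 (0.51, adjusted p 0.0154). MIR6723 overlaps MTCO1P12 by 89 bases on the other strand and had 162, 123 and 84 counts in shCtrl and 86, 78 and 89 in shMORC2. MTCO2P12 was at 9.65 ± 1.96 CPM in shCtrl against 10.7 ± 1.64 CPM in shMORC2 (0.15, adjusted p 0.466). MTCO1P40 on chromosome 17 was at 5.54 ± 1.16 and 4.20 ± 1.11 CPM (-0.40, SE 0.20, adjusted p 0.129), and the block gave -0.40 (adjusted p 0.0211). MTCO1P2, in an intron of AKAP6, had a log2 fold change of -0.29 (adjusted p 0.577). MTCO1P22 had 30, 28 and 2 counts in shCtrl and 7, 5 and 6 in shMORC2, and was not tested in the main fit. With no filter on low counts, and without shCtrl replicate 3, it was called lower. MTCO1P22 had its lowest shCtrl count in replicate 3, as did most members, abundant ones such as MTCO1P12 (23684, 19019 and 17024 counts) among them. Others did not, such as MTND4LP30 (42, 40 and 44 counts in shCtrl).

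Among the 4 copies of the ATP synthase genes, 1 was called, and it was lower. With 19.6% of all genes called lower and 19.9% higher, this count says nothing particular about the 4. MTATP6P1 was at 2399, 2167 and 2405 CPM in shCtrl and 2820, 2251 and 2167 CPM in shMORC2. The groups overlapped, and the log2 fold change stood at 0.05 (SE 0.10, adjusted p 0.705). MTATP8P1, its neighbour in the same insertion, was at 24.4, 22.2 and 29.95 CPM in shCtrl and 13.1, 12.3 and 11.6 CPM in shMORC2. Every shMORC2 library lay below every shCtrl library (-1.05, SE 0.11, adjusted p 1.56e-05). Both genes are on the plus strand and share 46 bases, within which a read could belong to either. Per 100 counts of MTATP6P1, MTATP8P1 took 1.02, 1.02 and 1.25 in shCtrl and 0.463, 0.548 and 0.537 in shMORC2. MTATP6P2, on chromosome 5, was at 3.19 ± 0.837 CPM in shCtrl against 2.16 ± 0.683 CPM in shMORC2 (-0.56, SE 0.24, adjusted p 0.0849), and the block gave -0.56 (adjusted p 0.0096). MTATP8P2, in an intron of RGPD2, had 138 counts and a log2 fold change of -0.48 (adjusted p 0.331). The copy of the complex III gene, MTCYBP18, had a log2 fold change of -0.13 (SE 0.33, adjusted p 0.780).

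Since a copy and its gene can share reads, each was set beside the mitochondrial gene its symbol names. Of 24 tested copies, 16 had a fold change of the same sign as that of the gene and 8 of the opposite sign, and 16 lay within 0.5 of it on the log2 scale. Of the 9 copies called, 5 (MTND1P23, MTCO3P12 and the 3 MTRNR2L copies) had a gene called in the same direction. These counts are a description, since several copies name the same gene and no matching count was made for other pairs of genes. For genes near 0, such as MT-ND5 (-0.01) and MT-ATP8 (0.01), the sign carries little. MT-ND1 rose by 1.10 (adjusted p 3.03e-06) and MT-CO3 by 0.40 (adjusted p 0.00798). For the other 4 the gene was not called or was called in the other direction, as the plot of copy against gene shows. MT-ND4L fell by 0.40 (SE 0.10, adjusted p 0.00543) while MTND4LP30 rose by 1.72, and MT-ATP8 was at 0.01 (SE 0.09, adjusted p 0.930) while MTATP8P1 fell by 1.05. MT-ND5 was at -0.01 (adjusted p 0.924) and MT-ND6 at 0.22 (adjusted p 0.0816), beside 0.39 for MTND5P11 and 0.49 for MTND6P4.

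**Figure D3:**
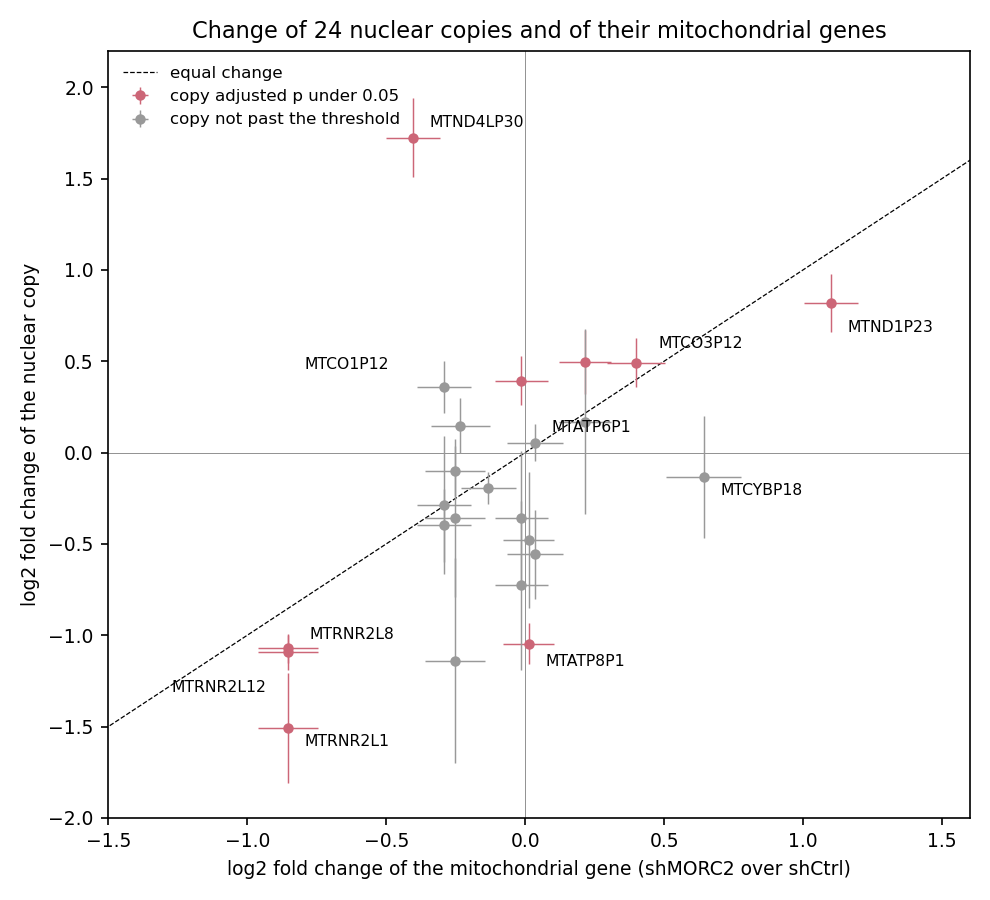
Each point is 1 of 24 nuclear copies, with the log2 fold change (shMORC2 over shCtrl) of its mitochondrial gene on the x axis and its own on the y axis, bars giving the SE, red where edgeR's adjusted p of the copy was under 0.05 and grey otherwise. The dashed line marks equal change, from which MTND4LP30 (1.72 beside -0.40) and MTATP8P1 (-1.05 beside 0.01) lie farthest among the called copies.

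The counts of a copy per 100 counts of its gene need no scaling between libraries. MTND4LP30 took 0.0436, 0.0398 and 0.0424 per 100 counts of MT-ND4L in shCtrl and 0.203, 0.171 and 0.170 in shMORC2, which is 4.33-fold. MTATP8P1 took 0.650, 0.649 and 0.765 per 100 counts of MT-ATP8 in shCtrl and 0.313, 0.349 and 0.335 in shMORC2. These groups lay far apart, in opposite directions. MTCO1P12 took 6.12, 5.20 and 4.15 per 100 counts of MT-CO1 in shCtrl and 9.06, 6.49 and 8.42 in shMORC2, and MTND5P11 took 0.126 ± 0.0125 and 0.166 ± 0.00703 per 100 of MT-ND5, both higher in shMORC2 with no overlap. MTCYBP18 (0.0578 ± 0.00653 and 0.0326 ± 0.0119 per 100 of MT-CYB) and MTRNR2L1 were lower with no overlap. For each of these 6 the exact two-sided permutation p was 0.1, the smallest that 3 libraries against 3 allow, and 0.433 after Benjamini-Hochberg adjustment over the 26 ratios. The other 20 overlapped. A ratio also moves with its gene. MT-CYB was called higher (log2 fold change 0.64, edgeR adjusted p 0.00226), while MTCYBP18 itself was not called (-0.13, adjusted p 0.780). MT-CO1 was called lower (-0.29, adjusted p 0.0285), while MTCO1P12 itself was not called (0.36, adjusted p 0.0614). MTATP6P1 took 22.6 ± 0.935 in shCtrl and 22.8 ± 0.822 in shMORC2 per 100 counts of MT-ATP6, and MTND2P28 took 12.03 ± 0.671 and 11.5 ± 0.150. MTRNR2L8 and MTRNR2L12 overlapped too, at 0.236 ± 0.0329 and 0.205 ± 0.0344 and at 0.256 ± 0.0403 and 0.218 ± 0.0352 per 100 counts of MT-RNR2.

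**Figure D4:**
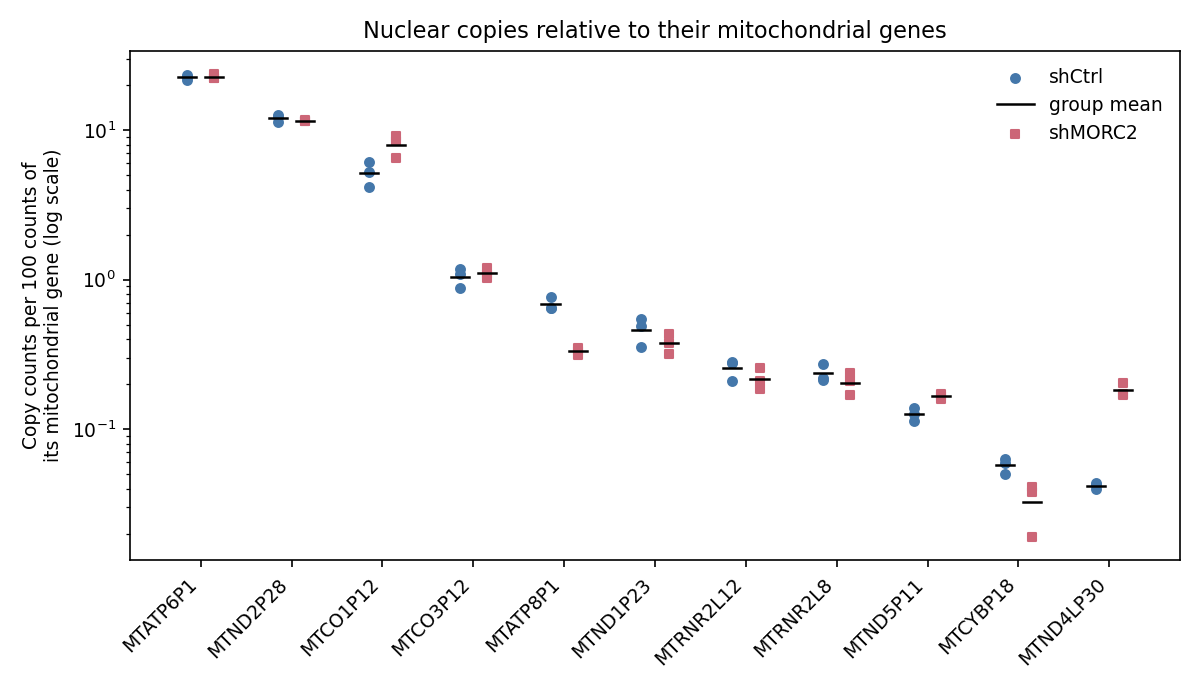
Each point is the count of a nuclear copy per 100 counts of its mitochondrial gene in 1 library on a log axis, with shCtrl as blue circles, shMORC2 as red squares and bars at the group means. The groups are apart for MTND4LP30, MTATP8P1, MTCO1P12, MTND5P11 and MTCYBP18 and overlap for the others drawn.

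The 37 genes of the mitochondrial genome were all tested, with 10 called higher and 11 lower, where 19.9% and 19.6% of all genes tested were. A list of genes for mitochondrial transcription and RNA turnover gave 10 of 29 lower, 1 higher and 18 not called, with a median log2 fold change of -0.19, beside the same shares of all genes (19.6% lower and 19.9% higher) and their median of -0.01. The RNA polymerase POLRMT fell by 0.52 (adjusted p 0.000763), its cofactor TFB2M by 0.70 (adjusted p 0.000201) and the packaging factor TFAM by 0.43 (adjusted p 0.00791). LRPPRC, which stabilises mitochondrial mRNA, fell by 0.44 (adjusted p 0.00103), and HSD17B10, a subunit of the mitochondrial RNase P, rose by 0.43 (adjusted p 0.00173). Among the other large class of pseudogenes, those of ribosomal proteins, 65 of 229 tested were called higher and 11 lower (19.9% and 19.6% of all genes), with a median of 0.32. Whether the class differs from the mitochondrial copies was not tested.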

How the data were processed

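RNA was sequenced by the authors from 3 shCtrl and 3 shMORC2 SW480 libraries, made with a stranded mRNA kit with molecular identifiers. According to the submitters' processing notes the tools were Trimmomatic 0.36, STAR 2.5.3a, featureCounts of Subread 1.5.1 and edgeR 3.12.1, on GRCh38. The annotation release, the strand setting, the treatment of reads with several matches and whether identifiers were collapsed are not given in the sources used here. The authors deposited raw counts per gene symbol with gene coordinates, and an RPKM table computed by the authors from those counts and the exon lengths. Among values of 1 to 10 counts, 68.8% over all genes and 78.9% for the nuclear copies were even, which the sources do not explain. There were 0 columns from samples outside the series and 0 rows that name no gene. The deposited splicing comparisons hold the authors' own differences and p-values and were not used.

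For the group comparison, R 4.3.3 with edgeR 4.0.16 was applied to the counts (genes kept by filterByExpr, scaling by TMM, a quasi-likelihood model with no term beside the group). P-values were adjusted by Benjamini-Hochberg over all 21005 genes kept, with calls at an adjusted p under 0.05. The SE is the size of the log2 fold change divided by the square root of F. Copies were aligned to the mitochondrial genome with blastn 2.17.0, keeping the best local alignment, and shared windows are exact matches of 100 bases. Sequences were read from GRCh38 and gene types from GENCODE v44. Ratios of copy to mitochondrial gene counts were compared between groups with an exact permutation test in scipy 1.17.1. The fit was tested on simulated data.

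The members and the gene lists were chosen with earlier results of these data known. The text gives values for the 10 most abundant copies, up to 6 called copies with the highest and lowest fold changes and a mean of at least 20 counts, all MTRNR2L copies, those nearest the limit of 60 counts, their mitochondrial genes, MORC2 and the genes that hold or overlap them. Copies outside this rule (among them MTCO1P40, MTATP6P2, MTCYBP18, MTCO1P2, MTCO1P22, MTATP8P2 and MTND4P35), MTRNR2L2 and the 5 named genes for mitochondrial transcription and RNA turnover were added after their values were seen.

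Total counts ran from 42092664 to 43434425 per library, and correlations of log2 CPM were 0.994 to 0.996 between libraries of a group and 0.978 to 0.984 across groups. Deviations from the group means correlated between the shCtrl and shMORC2 library of a number (0.333, 0.165 and 0.149). No label explains the numbers, and libraries of unlike number were not correlated in this way, so the pairing is not established. The main fit did not use it, and its SE, adjusted p and calls leave it out. It enters only as the replicate block, with 6 copies called higher and 8 lower instead of 5 and 4. Alternatives comprised DESeq2 1.42.0, no TMM scaling, mitochondrial-genome genes left out of the library sizes, other filters on low counts, other count minimums for a member, the replicate block, limma 3.58.1 on log2(RPKM + 1) and log2(RPKM + 0.1), and each library left out in turn.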

Additional observations from a re-analysis of the deposited data

How the results depend on the processing

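MTND4LP30 (log2 fold change 1.44 to 1.84), MTND1P23 (0.61 to 0.96), MTATP8P1 (-1.14 to -0.91), MTRNR2L12 (-1.17 to -1.004) and MTRNR2L8 (-1.10 to -1.02) were called in all 14 alternatives, and MTRNR2L1 (-1.64 to -1.41) in the 11 that tested it. MORC2 was called in all 14. MTCO3P12 and MTND5P11 were called in 10 of 14 and MTND6P4 in 7. With both limma fits 3 copies were called higher instead of 5 (20.6% and 20.5% of all genes), and with no filter on low counts 8 were called lower instead of 4 (11.8% of all genes). The replicate block called 6 higher and 8 lower, adding MTCO1P12 to the higher and MTATP6P2, MTCO1P40, MTND2P28 and MTND4P35 to the lower, and changed no other call, where that fit called 24.4% of all genes higher and 24.5% lower. Leaving out a library gave 2 to 6 higher calls (15.1% to 19.8% of all genes) and 4 to 8 lower (13.9% to 19.4%). Higher calls were 2 without shCtrl replicate 2 (15.3%) or 3 (16%) and 3 without shMORC2 replicate 1 (19.8%). Lower calls were 8 without shCtrl replicate 3 (15%) or shMORC2 replicate 1 (19.4%), where all 26 copies were tested. These lower calls took in MTRNR2L10 in both fits and MTCO1P22 without shCtrl replicate 3, copies that the main filter left out. The cause of these shifts was not tested. The direction turned, always for a copy that was not called, when 1 library was left out. Over the libraries left out MTATP6P1 ran from -0.071 to 0.13, turned without shMORC2 replicate 1. MTND6P3 ran from -0.18 to 0.74, turned without shCtrl replicate 3. MTCYBP18 ran from -0.47 to 0.20 and MTND4P12 from -0.27 to 0.011, both turned without shMORC2 replicate 2. The log2 ratio of the summed level ran from -0.08 to 0.12 over the libraries left out, within the spread between replicates. Precision is limited by depth for 5 of the 26 copies, which had under 30 counts in a group.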
